A study of Mus musculus with 24 samples.

Results

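The genes described here encode the proteasome, its assembly chaperones, its activators and its inhibitor. They were taken as the protein-coding mouse genes whose symbol is Psma, Psmb, Psmc, Psmd, Psme, Psmf or Psmg followed by a digit, with at least 0.66 CPM (counts scaled to a common library total) in at least 6 of 24 liver libraries. The naming rule found 50 genes, and 48 of them were among the 12330 genes tested. The remaining 2 were Psmb11, a thymus-specific catalytic subunit listed at 0 in all mice, and Psmc3ip, which is no subunit and shares only the letters of the name. The members nearest above the threshold were Psma8, Psme2b and Psmg4, with means over all mice of 0.817, 1.14 and 1.91 CPM. Psmc3ip, the nearest gene outside, reached 0.66 CPM in 0 libraries and had a mean of 0.190 CPM.

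The study deleted the whole major urinary protein (Mup) gene cluster with CRISPR/Cas9 to examine what these abundant, mainly male liver proteins contribute to metabolism. Hepatic RNA was sequenced from mice of the strain C57/BL6N at an age of 12 weeks, in groups of 6: male wildtype (mWT), male knockout (mKO), female wildtype (fWT) and female knockout (fKO). The KO mice were homozygous offspring of a heterozygous intercross that traced back to a single male founder, so that both KO groups descend from 1 edited animal. All mice ate standard chow and were fasted before a scan under isoflurane and sampling, and whole liver was homogenised, so that every cell type of the organ contributed RNA.

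The proteasome is the protease that degrades most ubiquitin-tagged proteins in the cytosol and nucleus. Its barrel-shaped core particle is built of outer rings of alpha subunits, which gate the entrance, and inner rings of beta subunits, of which 3 carry the proteolytic sites. A regulatory particle docks on the barrel: its ATPases (Psmc genes) unfold the substrate and its non-ATPase subunits (most Psmd genes) bind the ubiquitin chain and cut it off. Under interferon the inducible subunits Psmb8, Psmb9 and Psmb10 replace Psmb5, Psmb6 and Psmb7, which yields the immunoproteasome that trims peptides for MHC class I. Subunit genes are known to be transcribed together, with Nfe2l1 as their main activator when proteasome activity falls short and Nfe2l2 under oxidative stress.

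Between 15361901 and 26261394 reads per mouse were assigned to genes, so that 3 reads, the limit that a count of 0 allows, corresponded to 0.114 to 0.195 CPM. Reads of the 22 Mup genes made up 1.70 to 3.68% of the counts in mWT and 0.344 to 0.555% in fWT mice, whereas no KO library held more than 11 such reads. The hepatocyte markers Alb, Apoa1, Ttr, Cps1 and Hnf4a summed to between 85788 and 141538 CPM, whereas the cholangiocyte markers Krt19, Epcam and Sox9 stayed between 1.52 and 4.53 CPM. The proteasome genes together received 0.262 to 0.354% of the reads of a library.

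Per length of transcript, the 31 subunits of the core and regulatory particles, leaving out the inducible subunits and the testis subunit Psma8, lay within a 4.83-fold range. Their mean over all mice ran from 24.7 CPM per kb for Psmd3 to 120 CPM per kb for Psmb7, with a median of 49.7 CPM per kb. The ATPases were among the most even groups, from 41.9 CPM per kb for Psmc2 to 60.2 CPM per kb for Psmc1. The inducible catalytic subunits were lower, with 7.45 CPM per kb for Psmb9, 9.82 CPM per kb for Psmb10 and 10.7 CPM per kb for Psmb8. The 7 assembly chaperones, which help build the particles but are not part of the finished complex, ranged from 3.44 CPM per kb (Psmg4) to 14.8 CPM per kb (Psmg1). Psma8, which replaces an alpha subunit in the testis, had 0.483 CPM per kb.

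**Figure D1:**
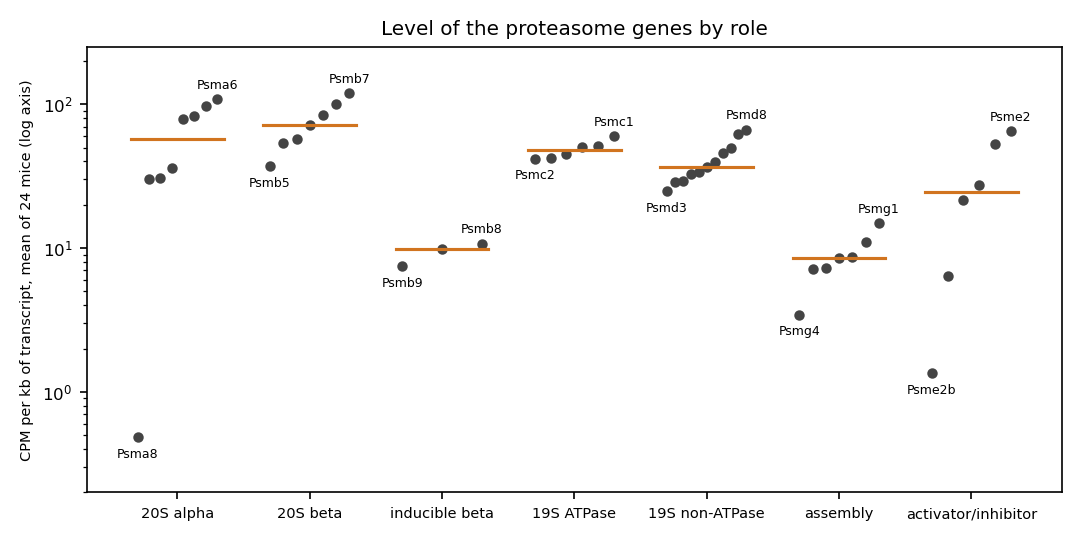
Level of the 48 proteasome genes in CPM per kb of transcript on a log axis, as the mean of 24 mice, with a point per gene and a bar at the median of each role. The constitutive subunits sit between 24.7 and 120 CPM per kb, above the inducible subunits and the assembly chaperones.

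In males, the question was whether the loss of the Mup cluster was accompanied by another level of the proteasome genes. In mKO compared to mWT mice, 5 of 48 proteasome genes (10.4%) were higher with an unadjusted p under 0.01, the cut-off of the study for a differentially expressed gene (DEG), and 0 were lower. Of all genes tested, 1.8% were higher and 1.72% lower at this cut-off. The 5 were Psma1, Psmb5, Psmc2, Psmd4 and Psmd11, and none of them belonged to the inducible subunits, chaperones or activators. With p-values adjusted over all genes, 0 of 48 passed 0.05 in edgeR (lowest adjusted p = 0.143), where 0.0324% of all genes were higher and 0.178% lower, and 17 of 48 were higher and 0 lower at an unadjusted p under 0.05 (5.31% and 5.27% of all genes). With DESeq2 in place of edgeR, 10 of 48 passed the unadjusted cut-off, which 4.25% of all genes passed in either direction. Psmb5, Psmd4 and Psmd11 had an adjusted p under 0.05 in DESeq2 (0.0443, 0.0448 and 0.0375), as did 1.13% of all genes. The number at the unadjusted cut-off was 3 without mWT mouse 5, and 8 to 10 when any 1 of mWT mice 2 and 4, mKO mouse 2, fWT mouse 3 and fKO mice 4 and 5 was left out. Psma1, Psmb5, Psmd4 and Psmd11 are also among the DEG that the study placed around Nfe2l2, a list drawn from the same mice and therefore no independent evidence of their direction.

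**Figure D2:**
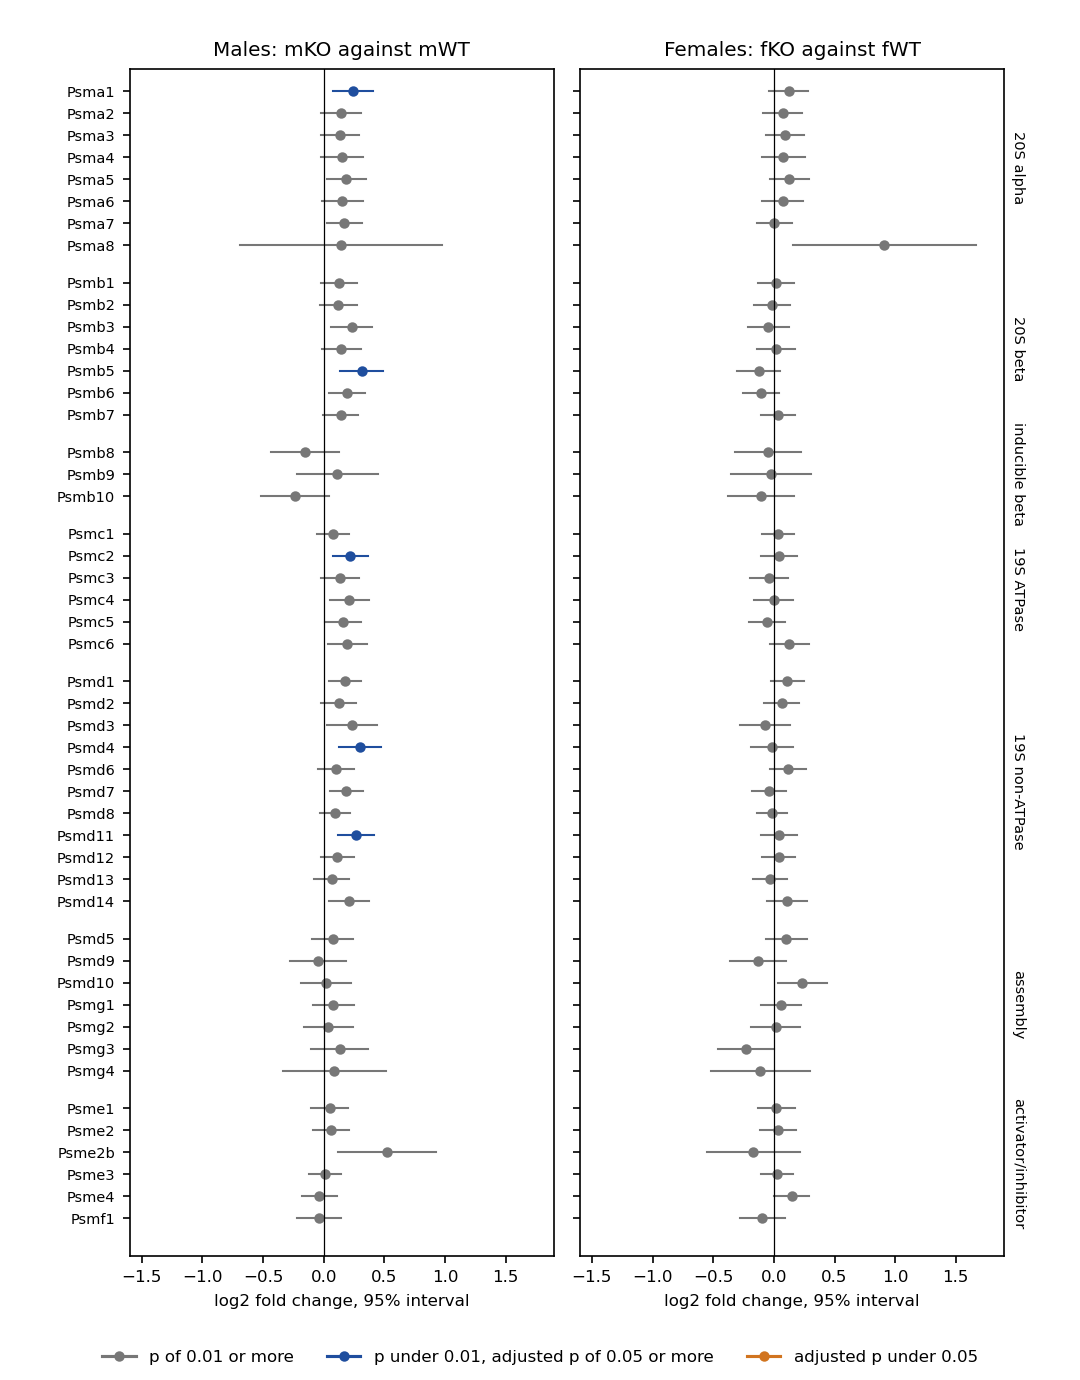
Log2 fold change of each proteasome gene with its 95% interval from the edgeR fit, for mKO against mWT mice on the left and fKO against fWT mice on the right, ordered by role. The 31 subunits of the core and regulatory particles all lie right of 0 in males, with Psmb5 highest among them at 0.31, and scatter around 0 in females.

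Psma1 (ENSMUSG00000030751, chromosome 7, 114264606 to 114276118, minus strand; GRCm38), an alpha-ring subunit, was expressed at 80.4 to 105 (median 91.1) CPM in mWT, 99.2 to 119 (median 107) CPM in mKO, 76.3 to 96.2 (median 85.7) CPM in fWT and 75.5 to 106 (median 94.1) CPM in fKO mice. Of the mKO mice, 4 of 6 exceeded every mWT mouse. Its log2 fold change in males was 0.24 (standard error 0.0796, adjusted p = 0.217 in edgeR). Over 34 alternative fits, p stayed under 0.01 in 28 for Psma1, in 29 for Psmc2 and in 34 each for Psmb5, Psmd4 and Psmd11.

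Psmb5 (ENSMUSG00000022193, chromosome 14, 54614119 to 54618022, minus strand) carries the chymotrypsin-like site, the main target of proteasome inhibitor drugs. It was expressed at 27.4 to 35.6 (median 33.3) CPM in mWT and 34.05 to 45.4 (median 39.95) CPM in mKO mice. In females the levels were 27.5 to 34.8 (median 33.3) CPM in fWT and 25.3 to 33.2 (median 31.1) CPM in fKO mice. In males it was higher in the knockout by 0.31 on the log2 scale (standard error 0.0866, 1.24-fold, adjusted p = 0.143), and 5 of 6 mKO mice exceeded every mWT mouse.

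Psmc2 (ENSMUSG00000028932, chromosome 5, 21785283 to 21803787, plus strand), an ATPase of the regulatory particle, was expressed at 68.5 to 75.8 (median 72.5) CPM in mWT and 73.7 to 92.7 (median 84.3) CPM in mKO mice. The female ranges were 66.7 to 73.2 (median 70.4) CPM in fWT and 57.1 to 83.1 (median 72.7) CPM in fKO mice. The difference between mKO and mWT mice on the log2 scale was 0.22 (standard error 0.0709, adjusted p = 0.216), and the lowest mKO mouse lay within the mWT range. The fKO mice were more widely spread than those of any other group for this gene.

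Psmd4 (ENSMUSG00000005625, chromosome 3, 95032694 to 95042614, minus strand), a receptor for ubiquitin chains, was expressed at 57.7 to 70.4 (median 63.7) CPM in mWT and 71.3 to 87.3 (median 79.7) CPM in mKO mice. In fWT and fKO mice it was at 55.3 to 67.5 (median 61.6) CPM and 45.4 to 69.3 (median 62.4) CPM. It was the one gene of the 5 whose male groups did not overlap, and its male difference on the log2 scale was 0.30 (standard error 0.0845, adjusted p = 0.151). The share of all genes tested without overlap between these groups is not given, so that an absence of overlap only describes the values.

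Psmd11 (ENSMUSG00000017428, chromosome 11, 80428615 to 80473248, plus strand), a scaffold subunit that holds the regulatory particle on the core, was expressed at 84.1 to 105 (median 94.04) CPM in mWT and 103 to 119 (median 114) CPM in mKO mice. It was at 80.2 to 94.01 (median 85.4) CPM in fWT and 78.2 to 107 (median 84.5) CPM in fKO mice. The difference between mKO and mWT mice on the log2 scale was 0.26 (standard error 0.0733, adjusted p = 0.143), and 5 of 6 mKO mice lay above all mWT mice.

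**Figure D3:**
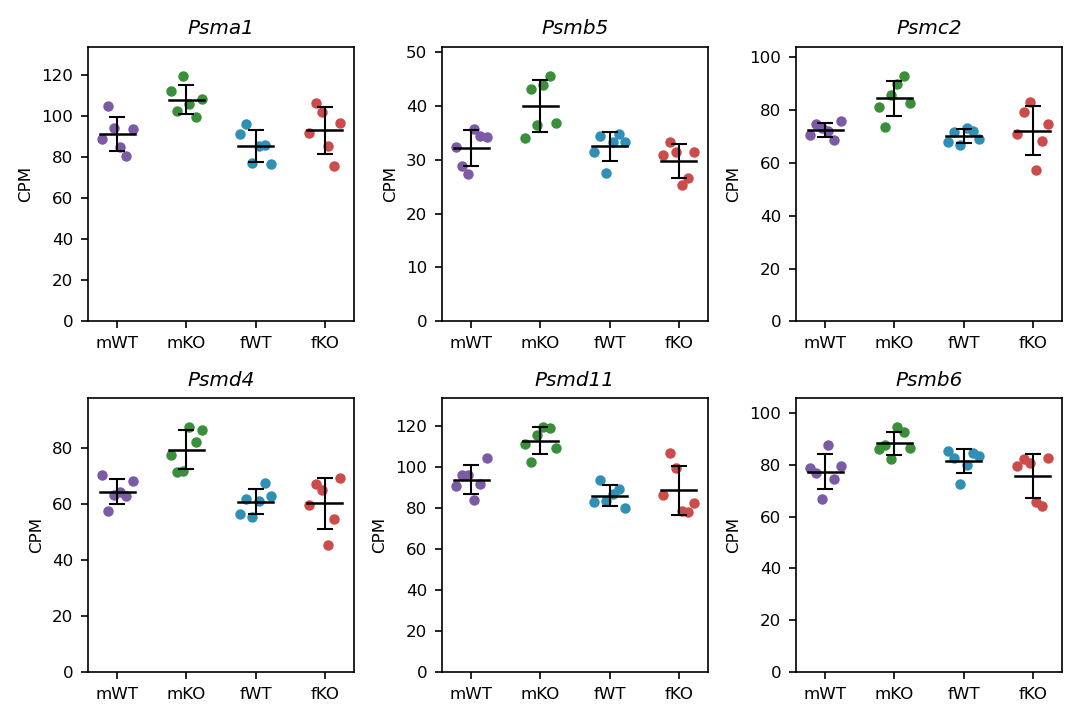
Expression in CPM of Psma1, Psmb5, Psmc2, Psmd4, Psmd11 and Psmb6 in each of 6 mice per group, with a point per mouse and a black bar and whiskers for the mean and SD. The green mKO points of Psmd4 start at 71.3 CPM, above the highest mWT mouse at 70.4 CPM.

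To set sequence beside these values, the promoters of 4 of the genes that passed in males are given, with that of Psmb6, which with Psmb5 showed the clearest difference between the sexes in the knockout effect. Each runs from 250 bases before to 50 bases after the transcription start site, 5′ to 3′ on the strand of the gene (RefSeq, GRCm38.p6). Capitals mark matches on either strand to TGACNNNGC, the core of the antioxidant response element to which Nfe2l2 and Nfe2l1 bind, to CCAAT, the box bound by NF-Y, and to GAAANNGAA, a part of the interferon-stimulated response element. The windows are chr14:54617946-54618245 (minus strand) for Psmb5, chr11:70525107-70525406 (plus strand) for Psmb6, chr7:114276067-114276366 (minus strand) for Psma1, chr3:95042565-95042864 (minus strand) for Psmd4 and chr11:80428365-80428664 (plus strand) for Psmd11.
Psmb5: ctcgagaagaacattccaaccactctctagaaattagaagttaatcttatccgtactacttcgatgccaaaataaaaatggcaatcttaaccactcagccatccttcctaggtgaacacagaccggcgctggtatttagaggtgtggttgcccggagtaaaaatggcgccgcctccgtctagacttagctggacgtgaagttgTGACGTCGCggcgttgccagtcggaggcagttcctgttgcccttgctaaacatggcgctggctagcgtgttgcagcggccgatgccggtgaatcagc
Psmb6: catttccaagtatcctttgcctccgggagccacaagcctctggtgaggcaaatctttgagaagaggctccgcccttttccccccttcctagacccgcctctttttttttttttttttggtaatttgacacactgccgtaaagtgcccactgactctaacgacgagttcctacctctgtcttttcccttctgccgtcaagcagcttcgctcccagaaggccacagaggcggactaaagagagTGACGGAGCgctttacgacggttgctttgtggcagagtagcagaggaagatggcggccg
Psma1: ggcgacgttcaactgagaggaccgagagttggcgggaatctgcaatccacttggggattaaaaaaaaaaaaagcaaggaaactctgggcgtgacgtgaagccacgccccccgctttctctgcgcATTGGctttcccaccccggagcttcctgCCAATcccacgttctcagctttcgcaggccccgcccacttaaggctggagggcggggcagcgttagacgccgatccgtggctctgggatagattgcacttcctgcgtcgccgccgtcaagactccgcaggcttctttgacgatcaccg
Psmd4: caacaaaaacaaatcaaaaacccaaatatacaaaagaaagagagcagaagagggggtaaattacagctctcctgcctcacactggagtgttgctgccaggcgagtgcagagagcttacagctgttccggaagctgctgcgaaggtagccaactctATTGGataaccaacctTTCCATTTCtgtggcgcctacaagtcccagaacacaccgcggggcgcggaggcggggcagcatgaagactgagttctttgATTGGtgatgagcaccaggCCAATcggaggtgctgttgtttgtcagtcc
Psmd11: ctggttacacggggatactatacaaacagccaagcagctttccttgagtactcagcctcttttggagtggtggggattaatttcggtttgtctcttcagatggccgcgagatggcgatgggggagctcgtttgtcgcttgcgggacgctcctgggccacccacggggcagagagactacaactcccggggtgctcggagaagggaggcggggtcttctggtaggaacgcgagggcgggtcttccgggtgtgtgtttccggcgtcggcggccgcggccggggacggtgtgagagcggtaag

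The Psmb5 promoter held TGACGTCGC, which begins 47 bases before the start site, and that of Psmb6 held TGACGGAGC, which begins 9 bases before it. Psma1 held 2 CCAAT boxes, Psmd4 held 3 and 1 match to GAAANNGAA, and Psmd11 held none of the 3 motifs in this window. RefSeq promoters were given for 40 of the 48 genes, with 43 promoters among them, and not for Psma8, Psmb1, Psmb2, Psmb7, Psmc3, Psmd3, Psmd7 and Psmg2. TGACNNNGC was in 14.0% of these 43 promoters, in 12.4% of all 32851 mouse promoters of the same length and in 14.0% of the 12203 promoters of genes tested. CCAAT was in 30.2%, against 37.4% of all promoters and 37.5% of those of genes tested. GAAANNGAA was in 16.3%, against 8.56% and 7.34%, and in 0 of the 3 promoters of the inducible subunits. The genes with TGACNNNGC were Psmb5, Psmb6, Psmc6, Psmd9, Psmd12 and Psme4. A match of this kind is a description of letters and no measured binding site, and matches of different motifs were counted separately where they share bases.

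The small differences ran the same way across the structural subunits. Of the 31 constitutive subunits of the core and regulatory particles, 31 had a higher fitted level in mKO than in mWT mice, with log2 fold changes from 0.06 (Psmd13) to 0.31 (Psmb5) and a median of 0.16. Over all genes tested the median was −0.00. Of the 31, 5 passed p under 0.01 and 16 were under 0.05. The 31 stayed above 0 in each of 34 alternative fits, which included other scalings, DESeq2 and leaving out each mouse, with medians between 0.15 and 0.18. Subunits of a complex are measured in the same mice, so that these 31 values are not independent.

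By role, the male medians were 0.15 for the alpha ring, 0.15 for the constitutive beta ring, 0.18 for the ATPases and 0.17 for the non-ATPase subunits. Among the genes short of the cut-off, Psmb3, a structural beta subunit, was at 35.98 to 43.3 (median 39.5) CPM in mWT and 43.5 to 52.9 (median 46.7) CPM in mKO mice without overlap (log2 fold change 0.23, adjusted p = 0.283). Psma7, a subunit of the alpha ring, was also without overlap, at 71.1 to 77.6 (median 75.1) CPM in mWT and 80.9 to 86.4 (median 84.4) CPM in mKO mice (log2 fold change 0.17, adjusted p = 0.363). Psmd7, the inactive partner of the deubiquitinase Psmd14, had a log2 fold change of 0.19 (adjusted p = 0.283). Psmd13, at the lower end, had 0.06 (95% interval −0.08 to 0.21).

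Taking each mouse by itself, the mean log2 deviation of the 31 subunits from their mean over all mice was 0.09 to 0.21 in mKO, −0.08 to 0.06 in mWT, −0.24 to 0.02 in fWT and −0.25 to 0.05 in fKO mice. Each of the 6 mKO mice thus lay above each of the other 18 mice, while the other groups overlapped. In mKO mice, 26 to 31 of the 31 subunits were above their median over all mice. The lowest values belonged to fKO mouse 5 (−0.25), fWT mouse 3 (−0.24) and fKO mouse 4 (−0.23), in which 0, 0 and 2 of the 31 subunits were above that median. The mean deviation over all tested genes stayed between −0.03 and 0.04 in the 24 mice. Whether fewer cells of a type or less RNA per cell underlies a level cannot be told apart in bulk tissue.

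**Figure D4:**
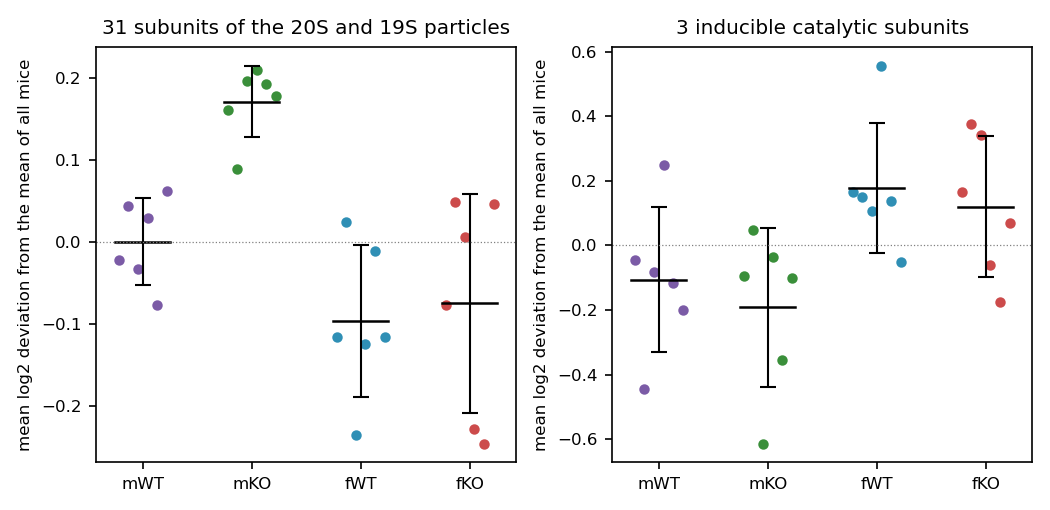
Mean log2 deviation from the mean of all mice, per mouse, for 31 constitutive subunits on the left and for Psmb8, Psmb9 and Psmb10 on the right, with a point per mouse and black bars for the mean and SD of each group of 6. The 6 mKO mice lie at 0.09 and above on the left, where no other mouse exceeds 0.06.

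When the 4 group means were ordered, mKO had the highest mean for 31 of 31 constitutive subunits and for 37 of all 48 proteasome genes (77.1%). Of all genes tested, 25.5% had their highest mean in mKO mice. The lowest mean fell to fWT for 18, to fKO for 12 and to mWT for 1 of the 31. The inducible subunits differed, with the highest mean in fWT for 3 of 3, as for 26.5% of all genes tested. For Psmb9 the means were close, at 10.5 CPM in fWT, 10.3 in fKO and 10.1 in mKO mice. Its medians had another order, at 9.83 CPM in fWT, 10.7 in fKO and 10.2 in mKO mice.

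The 17 remaining genes varied in direction. In males their log2 fold changes had a median of 0.05, and 12 were above and 5 below 0 (49.4% and 50.5% of all genes). At p under 0.01, 0 of 17 passed, where 1.8% of all genes were higher and 1.72% lower, so that few would be reached among 17 genes. Psmb8 was at 10.9 to 20.2 (median 15.2) CPM in mWT and 9.96 to 15.98 (median 14.9) CPM in mKO mice, and the fold change on the log2 scale was −0.15 (95% interval −0.43 to 0.13). Psmb10 was at 9.21 to 16.5 (median 11.98) CPM and 8.38 to 12.6 (median 10.5) CPM, with −0.24 (−0.52 to 0.04), and Psmb9 at 7.57 to 11.95 (median 8.85) CPM and 6.69 to 13.1 (median 10.2) CPM, with 0.11 (−0.22 to 0.45). The values of these 3 genes overlapped between the male groups.

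The 7 assembly chaperones had male log2 fold changes from −0.05 (Psmd9) to 0.13 (Psmg3), with a lowest adjusted p of 0.765. Among the activators, the subunits Psme1 and Psme2 of the interferon-inducible cap had 0.05 and 0.06, the nuclear activator Psme3 had 0.01 and the large activator Psme4 had −0.04. The inhibitor Psmf1 had −0.04. Psme2b, a near-copy of Psme2, had the largest male value of all 48 genes at 0.52 (standard error 0.195, adjusted p = 0.307), with levels of only 0.747 to 1.02 (median 0.922) CPM in mWT and 0.960 to 1.64 (median 1.29) CPM in mKO mice. Psme2 received 29510 reads over all libraries and Psme2b 534, so that the level of the latter is uncertain.

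In females, 0 of 48 proteasome genes passed p under 0.01 in fKO compared to fWT mice, where 0.406% of all genes were higher and 0.462% lower. With edgeR's adjustment 0 of 48 passed as well (0% of all genes higher, 0.0892% lower), and DESeq2 gave 0 at both cut-offs (1.18% and 0.146% of all genes in either direction). At an unadjusted p under 0.05, 3 of 48 were higher and 0 lower, against 2.49% and 2.38% of all genes. These 3 were Psma8 (log2 fold change 0.91), the chaperone Psmd10, also called gankyrin (0.23), and Psme4 (0.15). Psma8 was close to the limit of detection, at 0.524 to 0.768 (median 0.675) CPM in fWT and 0.420 to 2.35 (median 1.14) CPM in fKO mice. Of the 31 constitutive subunits 19 were above and 12 below 0, with a median of 0.03 and a range from −0.12 (Psmb5) to 0.13 (Psmc6). With libraries scaled by total count alone, 11 of 31 were above 0, and of the 48 genes 16 were above and 32 below 0 against 28 and 20 otherwise, so that the female direction depended on the scaling. The median over all genes moved as well, from −0.00 to −0.05, and that of the 31 subunits was then −0.01. Leaving out fWT mouse 4 or fKO mouse 4 brought 1 gene past p under 0.01, Psmd10 and Psma8 respectively.

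Whether the knockout effect differed between the sexes was tested by the interaction of genotype and sex. At p under 0.01, 2 of 48 genes had a larger effect in males and 0 a smaller one, where 0.503% and 0.657% of all genes did. They were the catalytic subunits Psmb5, with a difference of 0.44 (standard error 0.122, adjusted p = 0.745), and Psmb6, with 0.30 (standard error 0.101, adjusted p = 0.816). After adjustment 0 of 48 passed in edgeR (0.00811% of all genes higher, 0% lower). DESeq2 gave 2 of 48 at p under 0.01 and 0 after adjustment, where 1.58% and 0.0892% of all genes passed in either direction. At an unadjusted p under 0.05 in edgeR, 10 of 48 were higher and 0 lower (2.77% and 3.21% of all genes). Psmb6, which carries the caspase-like site, was at 66.6 to 87.5 (median 77.6) CPM in mWT, 82.3 to 94.3 (median 87.02) CPM in mKO, 72.7 to 85.4 (median 82.9) CPM in fWT and 64.2 to 82.4 (median 80.02) CPM in fKO mice. For both genes the male fold change was above and the female below 0, although the values of −0.12 (95% interval −0.30 to 0.05) for Psmb5 and −0.10 (−0.25 to 0.04) for Psmb6 in females did not differ from 0 beyond their error.

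Leaving out single mice left 1 to 4 genes past p under 0.01, with Psmb5 among them in 33 of 33 alternative fits and Psmb6 in 23 of 33. Psmb7, which carries the trypsin-like site, had an interaction of 0.11 (95% interval −0.10 to 0.31). Of Psma1, Psmc2, Psmd4 and Psmd11, the other genes that passed in males, Psmd4 had the largest interaction (0.32, adjusted p = 0.816) and Psma1 the smallest (0.12, adjusted p = 0.919). An effect limited to males was therefore not shown for these 4 genes. The values of Psmb8, Psmb9 and Psmb10 were −0.10, 0.14 and −0.13, with intervals that included 0.

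The sexes were next compared within each genotype. In mWT compared to fWT mice, 6 of 48 genes were higher and 1 lower at p under 0.01, where 9.03% and 9.15% of all genes were, and the same numbers passed an adjusted p under 0.05 (8.51% and 8.82% of all genes). In mKO compared to fKO mice, 23 were higher and 2 lower at p under 0.01 (7.97% and 7.89% of all genes), and 22 were higher and 2 lower after adjustment (7.26% and 7.13%). In percent of the 48 genes, the adjusted counts of higher genes were 12.5% between the WT groups and 45.8% between the KO groups. The median log2 difference of the 48 genes was 0.07 between WT and 0.21 between KO mice, and that of the 31 constitutive subunits 0.09 and 0.23. After adjustment, 3 or 4 genes in all passed between the WT sexes when any 1 of mWT mice 2 and 6 and fWT mice 1 and 3 was left out. Between the KO sexes, 14 passed without fKO mouse 4 and 15 without fKO mouse 5. The comparisons share groups, mKO mice for instance entering both the knockout comparison in males and the KO sex difference, so that their results are not independent. The difference between these sex differences is the interaction given above, in which no single gene passed after adjustment.

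**Figure D5:**
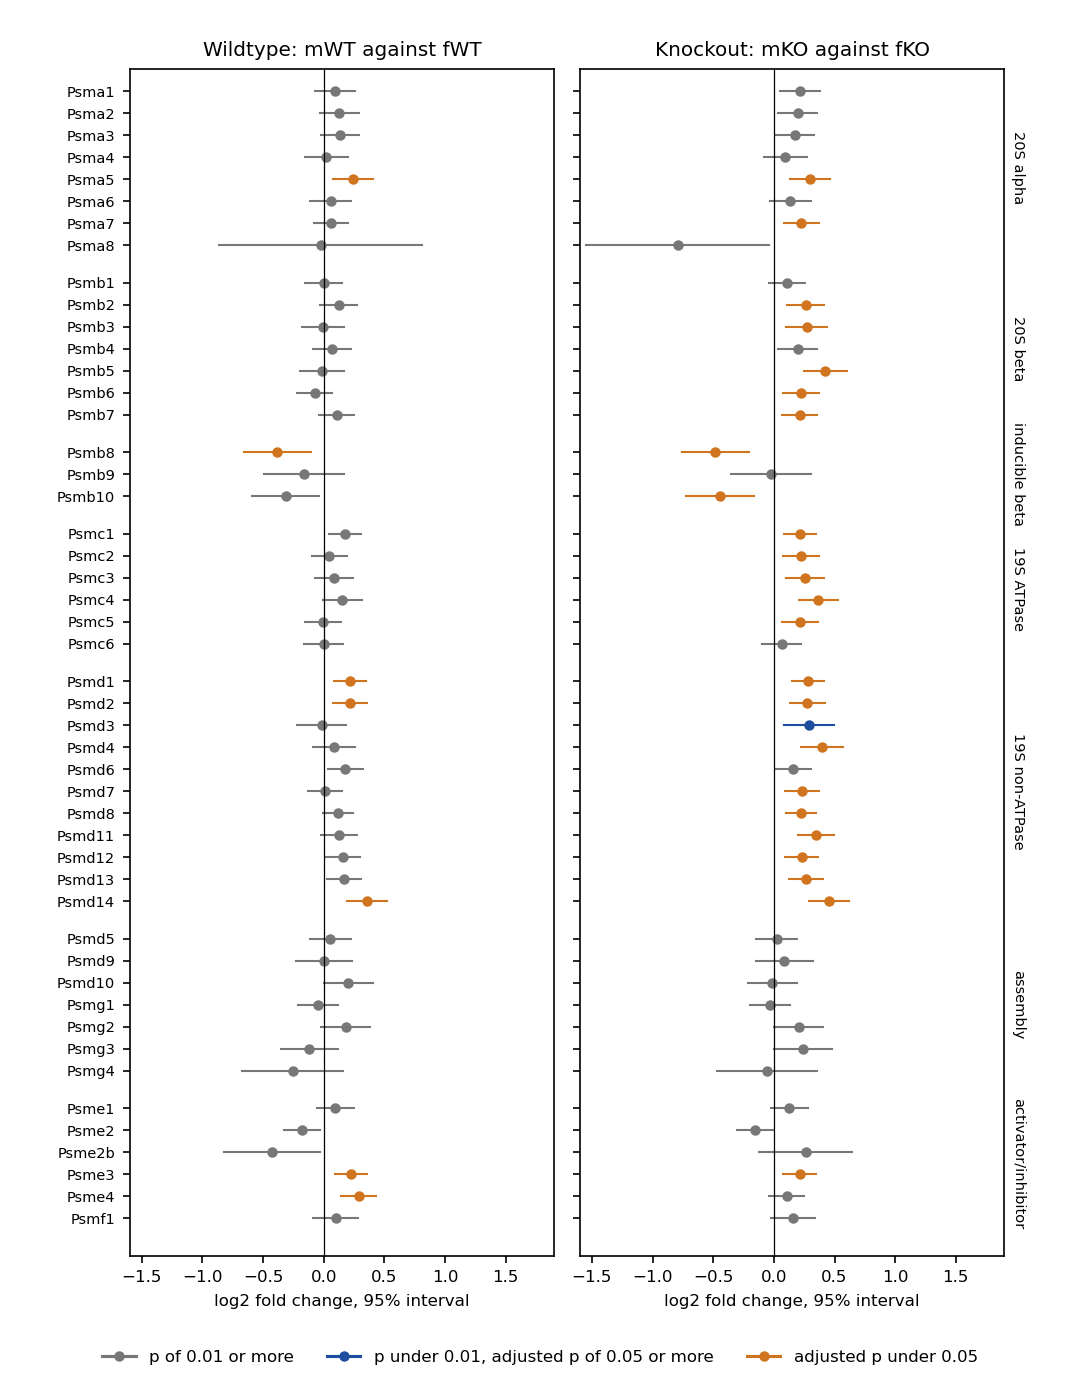
Log2 difference between males and females for each proteasome gene with its 95% interval, in WT mice on the left and KO mice on the right, ordered by role. Orange points, with an adjusted p under 0.05, number 7 on the left and 24 on the right, and Psmb8 lies left of 0 in both.

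Among the WT mice, the genes that were higher in males were Psma5, Psmd1, Psmd2, Psmd14, Psme3 and Psme4. Psmd14, the deubiquitinase that removes the ubiquitin chain, had the largest difference of the 6, at 45.3 to 53.6 (median 47.2) CPM in mWT and 29.3 to 42.4 (median 37.4) CPM in fWT mice without overlap (log2 difference 0.36, standard error 0.0806, adjusted p = 0.00248). In KO mice it was at 53.5 to 57.5 (median 55.6) CPM in mKO and 35.1 to 46.5 (median 40.3) CPM in fKO mice, again without overlap (0.46, standard error 0.0804, adjusted p = 0.000194). Its males were thus above its females in each genotype. For this gene and those below, the share of all genes without overlap between the sexes is not given either.

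Psme4, an activator known for its part in the degradation of histones, was at 176 to 217 (median 192) CPM in mWT and 142 to 182 (median 152) CPM in fWT mice (log2 difference 0.29, standard error 0.0704, adjusted p = 0.00502). In mKO it was at 175 to 206 (median 181) CPM and in fKO at 157 to 187 (median 176) CPM, a difference of 0.10 (95% interval −0.04 to 0.25) that did not pass. Psme3 was at 50.8 to 67.3 (median 62.7) CPM in mWT, 59.5 to 64.8 (median 62.2) CPM in mKO, 47.1 to 58.95 (median 53.3) CPM in fWT and 52.1 to 55.5 (median 53.6) CPM in fKO mice, with log2 differences between the sexes of 0.22 in WT (standard error 0.0646, adjusted p = 0.0164) and 0.21 in KO mice (standard error 0.0645, adjusted p = 0.0266). For Psme3 the KO sexes did not overlap.

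Psmd1 and Psmd2 are the largest subunits of the regulatory particle and serve as its docking scaffold. Psmd1 was at 117 to 132 (median 129) CPM in mWT, 98.9 to 121 (median 110.0) CPM in fWT, 131 to 148 (median 145) CPM in mKO and 97.3 to 131 (median 119) CPM in fKO mice, with log2 differences between the sexes of 0.22 (adjusted p = 0.0215) in WT and 0.28 (adjusted p = 0.00382) in KO mice. Psmd2, the most highly counted member, was at 173 to 202 (median 193) CPM in mWT, 153 to 177 (median 164) CPM in fWT, 196 to 226 (median 207) CPM in mKO and 139 to 191 (median 176) CPM in fKO mice. Its differences were 0.22 (adjusted p = 0.0323) and 0.27 (adjusted p = 0.00765). Both genes were without overlap between mKO and fKO mice.

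Psma5, of the alpha ring, was at 39.6 to 52.5 (median 45.5) CPM in mWT, 35.5 to 44.4 (median 38.1) CPM in fWT, 46.04 to 58.8 (median 51.9) CPM in mKO and 34.6 to 47.3 (median 43.5) CPM in fKO mice (log2 differences 0.24 and 0.30, adjusted p = 0.0352 and 0.0102). Psma7 was at 61.8 to 79.3 (median 73.6) CPM in fWT and 59.6 to 77.5 (median 76.8) CPM in fKO mice, with 0.23 (adjusted p = 0.0267) between the KO sexes, which did not overlap, and 0.06 (adjusted p = 0.602) between the WT sexes. These were the 2 alpha subunits that passed between the KO sexes, where 7.26% of all genes were higher.

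Of the 7 constitutive beta subunits, 5 passed as higher between the KO sexes and 0 between the WT sexes (7.26% and 8.51% of all genes). For the WT sexes, 0 of 7 is near the share of all genes. Psmb5 had the largest value, 0.42 (standard error 0.0865, adjusted p = 0.00106), without overlap, against −0.01 (95% interval −0.19 to 0.16) in WT mice. The structural subunit Psmb2 was at 43.3 to 59.2 (median 49.9) CPM in mWT, 50.98 to 58.4 (median 54.5) CPM in mKO, 39.4 to 49.5 (median 46.8) CPM in fWT and 40.1 to 50.7 (median 45.9) CPM in fKO mice (0.26 between the KO sexes, adjusted p = 0.0171). Psmb3 had 0.27 (adjusted p = 0.0279), with female levels of 34.6 to 44.7 (median 40.7) CPM in fWT and 30.1 to 44.2 (median 40.2) CPM in fKO mice. Psmb6 had 0.22 (adjusted p = 0.0369). Psmb7 had 0.21 (adjusted p = 0.041) and was at 127 to 151 (median 140.1) CPM in mWT, 139.8 to 169 (median 149) CPM in mKO, 116 to 144 (median 126) CPM in fWT and 112 to 141 (median 135) CPM in fKO mice. The KO sexes overlapped for Psmb3, Psmb6 and Psmb7.

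Of the 6 ATPases, 5 passed as higher between the KO sexes and 0 between the WT sexes (7.26% and 8.51% of all genes). For the WT sexes, 0 of 6 is near the share of all genes. The exception between the KO sexes was Psmc6 (0.07, 95% interval −0.10 to 0.23). Psmc4 had the largest value, at 79.1 to 93.03 (median 85.2) CPM in mKO and 54.2 to 76.9 (median 66.9) CPM in fKO mice (0.37, standard error 0.0774, adjusted p = 0.00144), and did not overlap. In WT mice it was at 71.3 to 79.9 (median 72.97) CPM in mWT and 58.6 to 74.1 (median 67.2) CPM in fWT mice (0.15, adjusted p = 0.18). Psmc1 was at 93.7 to 105 (median 99.4) CPM in mWT, 92.9 to 115 (median 105) CPM in mKO, 80.9 to 99.5 (median 85.9) CPM in fWT and 83.1 to 102 (median 88.8) CPM in fKO mice (0.21, adjusted p = 0.0262). Between the WT sexes, the largest difference of an ATPase was 0.17 (lowest adjusted p = 0.0661). For the interaction, the lowest adjusted p of the ATPases was 0.829, so that a sex difference limited to KO mice was not shown for them.

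Psmc2 had 0.22 (adjusted p = 0.0323) between the KO sexes. Psmc3 was at 78.6 to 93.9 (median 82.2) CPM in mWT, 83.9 to 98.8 (median 93.2) CPM in mKO, 74.5 to 84.5 (median 79.1) CPM in fWT and 58.97 to 87.8 (median 80.8) CPM in fKO mice (0.26, adjusted p = 0.022). Psmc5 was at 50.8 to 66.2 (median 56.97) CPM in mWT, 57.6 to 70.1 (median 64.8) CPM in mKO, 52.7 to 62.6 (median 56.97) CPM in fWT and 48.4 to 61.97 (median 55.9) CPM in fKO mice (0.21, adjusted p = 0.0481). All of these ATPases overlapped between the KO sexes except Psmc4.

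Of the 11 non-ATPase subunits, 9 passed as higher between the KO sexes, where 7.26% of all genes did. Between the WT sexes 3 did (Psmd1, Psmd2 and Psmd14), against 8.51% of all genes. At an unadjusted p under 0.05 in edgeR, 6 of the 11 were higher in mWT than in fWT mice (14.9% of all genes). Their lowest adjusted p for the interaction was 0.816. Psmd11 had 0.35 (adjusted p = 0.00142) and Psmd4 0.40 (adjusted p = 0.00156) in KO mice, against 0.12 and 0.08 in WT mice. The lid subunit Psmd8 was at 96.2 to 111 (median 107) CPM in mWT, 107 to 118 (median 112) CPM in mKO, 83.99 to 107 (median 95.7) CPM in fWT and 89.2 to 104 (median 95.6) CPM in fKO mice (0.23, adjusted p = 0.0108). The mKO mice lay above all fKO mice for Psmd4 and Psmd8, and 5 of 6 did for Psmd11.

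The lid subunit Psmd12 was at 65.2 to 75.98 (median 72.6) CPM in mWT, 72.7 to 86.4 (median 76.6) CPM in mKO, 58.0 to 73.8 (median 63.3) CPM in fWT and 59.97 to 70.6 (median 66.6) CPM in fKO mice (0.23, adjusted p = 0.019), without overlap between the KO sexes. Psmd13, also of the lid, was at 56.8 to 64.5 (median 60.7) CPM in mWT, 59.04 to 65.6 (median 63.5) CPM in mKO, 48.96 to 63.2 (median 52.04) CPM in fWT and 46.6 to 62.3 (median 51.7) CPM in fKO mice (0.26, adjusted p = 0.00933). Both were among the subunits with the smallest male fold changes for the knockout.

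Psmd7 was at 47.2 to 56.8 (median 49.1) CPM in mWT, 50.8 to 61.9 (median 58.7) CPM in mKO, 47.6 to 54.3 (median 49.9) CPM in fWT and 42.4 to 55.2 (median 48.9) CPM in fKO mice (0.23, adjusted p = 0.0194). Psmd3 was at 40.3 to 57.01 (median 53.1) CPM in mWT, 50.3 to 72.9 (median 58.4) CPM in mKO, 42.8 to 58.98 (median 52.2) CPM in fWT and 39.3 to 57.2 (median 50.4) CPM in fKO mice, and fell short of the adjusted cut-off (0.29, adjusted p = 0.0505). Of the 7 chaperones, 0 passed after adjustment in either comparison. Of all genes, 8.51% were higher and 8.82% lower between the WT sexes, and 7.26% and 7.13% between the KO sexes, so that 0 of 7 is near these shares.

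Psmb8 and Psmb10 had the opposite direction to the constitutive subunits. Psmb8 was lower in males than in females, at 15.8 to 24.7 (median 20.2) CPM in fWT and 16.1 to 22.9 (median 19.5) CPM in fKO mice against the male levels given above, with log2 differences of −0.38 in WT (standard error 0.135, adjusted p = 0.04999) and −0.48 in KO mice (standard error 0.135, adjusted p = 0.0155). No mKO mouse reached the lowest fKO mouse. Psmb10 was at 12.1 to 18.8 (median 14.99) CPM in fWT and 10.98 to 17.3 (median 14.3) CPM in fKO mice, with −0.31 in WT (adjusted p = 0.109) and −0.44 in KO mice (adjusted p = 0.0258). Psmb9 was at 8.40 to 15.1 (median 9.83) CPM in fWT and 7.05 to 12.4 (median 10.7) CPM in fKO mice and did not pass in either (−0.16 and −0.03). The WT difference of Psmb8 lay just under the threshold, and it passed the adjusted cut-off in 11 of 34 alternative fits.

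As each inducible subunit takes the place of a constitutive one, the ratio of their reads was formed within each mouse, which does not depend on library scaling and was not corrected for transcript length. Psmb8 reached 0.379 to 0.566 of Psmb5 in mWT, 0.274 to 0.433 in mKO, 0.475 to 0.828 in fWT and 0.621 to 0.729 in fKO mice. The ratio was lower in each mKO mouse than in any fKO mouse, a difference of −0.91 on the log2 scale (p = 0.00216 by an exact permutation test on both sides, which cannot go lower with 6 against 6 mice, adjusted p = 0.026 over 12 ratio tests). Between mKO and mWT mice it differed by −0.46 (exact permutation test, p = 0.0173, adjusted p = 0.0519), which missed the cut-off, and between fKO and fWT mice by 0.08 (p = 0.567 by the exact permutation test).

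Psmb10 reached 0.0495 to 0.0901 of Psmb7 in mKO and 0.0831 to 0.126 in fKO mice, a log2 difference of −0.66 (exact permutation test, p = 0.00433, adjusted p = 0.026), and 0.0608 to 0.114 in mWT against 0.099 to 0.163 in fWT mice, a difference of −0.44 (exact permutation test, p = 0.013, adjusted p = 0.0519). Psmb9 against Psmb6 gave log2 differences between −0.26 and 0.09 in the 4 comparisons, of which 0 passed. The difference in Psmb10 against Psmb7 between the KO sexes no longer passed when any 1 of fKO mice 1, 2, 3, 5 or 6 was left out. That in Psmb8 against Psmb5 passed without any single mouse.

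Summed markers of immune cells of the liver also had lower medians in males, as did those of endothelial and stellate cells given further below. The hepatocyte and cholangiocyte markers had this direction as well, so that it was not particular to immune cells. Hepatocyte medians were 96394 CPM in mWT against 110380 in fWT and 104507 in mKO against 115205 in fKO mice. Cholangiocyte medians were 2.59 against 2.67 CPM and 2.73 against 3.33 CPM in the same order. The summed level of 6 markers of T, B, NK and dendritic cells was 25.1 to 41.6 (median 31.8) CPM in mWT, 25.7 to 50.6 (median 31.8) in mKO, 39.1 to 88.0 (median 57.7) in fWT and 32.3 to 68.2 (median 35.2) in fKO mice. Of these 6 markers, 3 passed the filter for testing. The summed level of 5 Kupffer cell markers was 65.7 to 131 (median 95.8) CPM in mWT, 63.3 to 176 (median 87.7) in mKO, 117 to 219 (median 152) in fWT and 98.0 to 178 (median 121) in fKO mice. None of these markers was at 0 in all libraries, and their part in the levels of Psmb8 and Psmb10, which immune cells express strongly, was not tested. Of 7 genes of MHC class I presentation and interferon response, 7 had a lower fitted level in mWT than in fWT mice (50.4% of all genes). In mKO compared to fKO mice, 5 were lower and 2 higher (50.9% and 49.0% of all genes). After adjustment, 2 of 7 were lower in the WT and 1 of 7 in the KO comparison (8.82% and 7.13% of all genes). Tapbp, which helps load peptides onto MHC class I, passed an adjusted p under 0.05 in both genotypes, with log2 differences of −0.47 in WT and −0.50 in KO mice.

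The pathway around the proteasome was followed with 39 further genes. In mKO compared to mWT mice, 33 had a higher and 6 a lower fitted level, the median log2 fold change was 0.09, 0 passed p under 0.01 in edgeR, and 4 (10.3%) were higher and 0 lower at an unadjusted p under 0.05, where 5.31% and 5.27% of all genes were. Adrm1, the ubiquitin receptor of the regulatory particle that the naming rule does not catch, was at 19.1 ± 2.84 CPM (SD, n = 6) in mWT and 23.1 ± 3.66 CPM (SD, n = 6) in mKO mice (log2 fold change 0.27, adjusted p = 0.373). The assembly factor Pomp was at 92.2 ± 6.57 and 103 ± 2.95 CPM (SD, n = 6) in the same groups (log2 fold change 0.15, adjusted p = 0.468). Of 7 transcription factors of proteasome genes and their processing enzymes, 0 had an unadjusted p under 0.05, with Nfe2l1 at 98.1 ± 4.61 CPM (SD, n = 6) in mWT and 107 ± 8.36 CPM (SD, n = 6) in mKO mice (0.13, adjusted p = 0.524). In females 0 of the 39 genes passed p under 0.01, and 2 (5.13%) were lower at an unadjusted p under 0.05, where 2.38% of all genes were.

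Between the sexes, 7 of the 39 genes (17.9%) were higher and 3 (7.69%) lower in mWT than in fWT mice with an adjusted p under 0.05, against 8.51% and 8.82% of all genes. In mKO compared to fKO mice, 9 (23.1%) were higher and 1 (2.56%) lower, against 7.26% and 7.13% of all genes. The factors that deliver substrates made up most of them, with 5 of 12 higher and 1 lower in WT and 7 of 12 higher in KO mice. Rad23b, a shuttle for ubiquitin-tagged proteins, differed by 0.28 in WT and 0.37 in KO mice. The unfoldase Vcp differed by 0.24 and 0.26, its cofactor Ufd1 by 0.23 and 0.28, and the proteasome-bound deubiquitinase Usp14 by 0.25 and 0.27. All of these passed in both genotypes.

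The counts of some members are uncertain. A stretch of at least 100 bases with 95% or higher identity to the transcript of another gene was found for 18 of the 48 genes. For 6 of them the partner genes held over 5% of the joint reads. That share takes all reads of the partners and not only those on the stretch, so that it does not measure ambiguous reads. For other members, such as Psmb3, Psmb5 and Psmb6, the partners were not among the genes listed with counts, so that no share could be formed. Psmd11 and Psmd3 had the most partners, 79 and 22 other genes, which share a stretch and need not be copies. How many reads of Psmd11 this affects was not tested. Exons of another gene overlap on the same strand for 4 members, namely Psmb5 (with Mir686), Psmd1, Psme2b and Psmg3. On the opposite strand they do for 11, such as Psmb9 with Tap1 and Psmd13 with Sirt3. The libraries were stranded, but whether the counting used the strand is not given in the sources used here.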

How the data were processed

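Hepatic poly(A) RNA of 24 mice was sequenced in a single multiplex (100 bp single-end reads, stranded libraries). Per the submitters' processing notes, the authors used bcl2fastq 2.19, fastp 0.20, STAR 2.7a and edgeR 3.28.1 with the build GRCm38.p6, and counted reads per gene with featureCounts. The annotation release, the strand setting and the handling of reads that map to several places are not given in the sources used here. The deposited values are raw counts per gene, 1 table per mouse.

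Groups were taken from the sample titles and genotypes. A gene was tested when 6 or more of the 24 libraries reached 0.66 CPM, which left 12330 of 25746 genes. This threshold is the study's, but its wording can be read in more than 1 way, and the set of genes tested here is not the study's. The counts were scaled by TMM and fitted with a mean per group over all 24 libraries by the quasi-likelihood test of edgeR 4.0.16 in R 4.3.3. P-values were adjusted by Benjamini-Hochberg over all genes tested. All adjusted p-values come from this test unless DESeq2 1.42.0 or a permutation test (scipy 1.17.1) is named. Tests are two-sided. CPM and CPM per kb are TMM-scaled, with the length of the longest principal protein-coding transcript. Levels per mouse are means of log2(CPM + 0.5). The script was tested on simulated counts with known changes. Stretches shared with other transcripts were searched with blastn 2.17.0 and motifs in RefSeq promoters of GRCm38.p6. Of the members, 28 were given with values per group, namely those with p under 0.01 in any comparison, the catalytic and inducible beta subunits, and Psma1, Psmd4 and Psmd11. The members and gene lists were chosen with earlier results of these data known. Intervals and floors cover counting error and the spread between mice only.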

Additional observations from a re-analysis of the deposited data

Results flagged for a closer look

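Within groups of 6 mice, 7 of 112 sets of values held a mouse set apart from the others by more than the Dixon limit, which chance alone gives for about 1 in 20 sets. Below their group were Psmb2 in fWT mouse 3 at 39.4 CPM, Psmb7 in fKO mouse 5 at 112 CPM, Psmd1 in mKO mouse 2 at 131 CPM, Psmd13 in mKO mouse 6 at 59.0 CPM and Psmd3 in mWT mouse 2 at 40.3 CPM. Above their group were Psmb9 in fWT mouse 4 at 15.1 CPM and Psmc4 in mWT mouse 4 at 79.9 CPM. Mice fWT 3 and fKO 5 were also the lowest of their groups in the mean level of the 31 constitutive subunits, and mKO 2 was the lowest mKO mouse.

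The knockout effect differed between males and females for the catalytic subunits Psmb5, by 0.44, and Psmb6, by 0.30 on the log2 scale, at an unadjusted p under 0.01 for the interaction in edgeR, and neither passed after adjustment over all genes.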

How the results depend on the processing

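No result changed its direction past a threshold under any alternative, which comprised DESeq2, its size factors or total count in place of TMM, other filters, dispersions and deviances, fits of each comparison on its own 12 libraries, removal of the Mup genes, a replicate block and leaving out each mouse. For mKO against mWT mice, the number of proteasome genes with p under 0.01 was 5, and it was 10 with DESeq2, 3 with total count and 10 in the fit of its own 12 libraries. Leaving out each mouse gave 3 to 10. After adjustment it was 0, and 3 with DESeq2. Leaving out each mouse gave 0 to 1 genes for fKO against fWT mice, and 1 to 4 for the interaction, where the count fell to 1 without mWT 3 or 5, mKO 4 or 5, fWT 1, 2 or 5, or fKO 4 or 5, and rose to 4 without mKO 2 or fKO 2 or 6.

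For mWT against fWT mice the count was 7 at p under 0.01 (4 to 11 without single mice, lowest without fWT 1 or 3 and highest without fWT 2) and 7 after adjustment (3 to 9). For mKO against fKO mice the adjusted count was 24, 15 on its own 12 libraries, and 14 to 25 without single mice. The replicate numbers did not pair the mice (correlations of deviations from −0.36 to 0.22). With the number as a replicate block, the counts for mWT against fWT mice were 4 and 4, and the log2 ratios Psmb8/Psmb5 at −0.91 and Psmb10/Psmb7 at −0.66 between the KO sexes missed the adjusted threshold, since 6 pairs cannot give a small enough p over 12 tests. Without single mice, these ratio differences ran from −0.97 to −0.84 and from −0.74 to −0.57. Psmb8/Psmb5 between mKO and mWT mice ran from −0.52 to −0.38 and passed without mKO 1 or 6, and Psmb10/Psmb7 between the WT sexes ran from −0.52 to −0.34 and passed without mWT 4. Where not stated, the cause was not tested. At these depths genes near 1 CPM, such as Psma8 and Psme2b, rest on few reads per mouse.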

Other observations

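Endothelial and stellate cell markers, like those of immune cells, were summed per group. The sinusoidal endothelial markers lay at 71.0 to 88.4 CPM in mWT, 72.8 to 90.3 in mKO, 86.3 to 111 in fWT and 70.0 to 113 in fKO mice. The stellate cell markers lay at 149 to 276, 155 to 219, 224 to 295 and 195 to 299.7 CPM in the same order, so that the groups overlapped except for mKO and fWT mice.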
